A study of Mus musculus with 6 samples.

Results

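Liver transcripts of gluconeogenesis and glycogen metabolism were followed in 10 genes, G6pc, Pck1, Fbp1, Pcx, Slc37a4, Ppargc1a, Gys2, Pygl, Ppp1r3b and Ppp1r3c. They were chosen by name for their known roles, and all 10 were found among the 55385 genes of the count table. The libraries were made from liver poly(A) RNA of 6 male C57BL/6 mice, 3 sham and 3 VSG. Mice of both groups received a high-fat diet (HFD) for 10 weeks from an age of 6 to 8 weeks. They then underwent either vertical sleeve gastrectomy (VSG, removal of most of the stomach) or a sham operation and stayed on HFD for another 12 weeks. No genetic change, drug or virus is given for either group, and no lean or unoperated animals were included in these libraries. Whether the mice were fed or fasted at collection, and the time of day, are not given in the sources used here, although these transcripts follow both.

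In the fasting liver, gluconeogenesis builds glucose from lactate, amino acids and glycerol, and glycogen breakdown releases stored glucose. Both routes end in glucose 6-phosphate, which is carried into the endoplasmic reticulum and cleaved there to free glucose. Glucagon raises the transcription of several of these enzymes through cAMP and CREB, and insulin lowers it by keeping FoxO factors out of the nucleus, whereas glycogen synthase and phosphorylase are set mainly by phosphorylation, which a transcript count does not show.

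Total counts ran from 22804397 to 24191778 per library. Values are CPM (counts scaled to library size, with TMM factors that correct for composition), and a floor of 3 counts lay at 0.124 to 0.132 CPM. The libraries of each group differed among themselves. Of the 10 genes, 8 were highest in sham replicate 2 and 9 lowest in sham replicate 1 among the sham libraries. Among the VSG libraries, 9 were lowest in VSG replicate 4. Mitochondrial genes held 5.59 to 6.58% of the counts in sham and 4.14 to 5.01% in VSG, lowest in VSG replicate 4. The part of this share in the results was not tested. All 15 acute phase genes rose in VSG by edgeR, 14 by limma-voom and 12 by limma on log2(FPKM + 1), where FPKM is the level per kilobase of exon. All 15 remained higher at an unadjusted p under 0.05 whichever library was left out. Their adjusted calls fell to 1 when sham replicate 3, and to 5 when VSG replicate 6, was left out. Of 9 neutrophil markers, 7 had fewer than 10 counts in at least 1 library and passed the filter on low counts through the VSG group, where they are high, so they are given here by level and not by calls. Summed neutrophil markers ran from 2.604 to 14.3 CPM in sham and were 1820, 147 and 839 CPM in VSG replicates 4, 5 and 6, while summed acute phase transcripts ran from 18891 to 20855 CPM in sham and were 138733, 67500 and 116300 CPM in VSG. The VSG library lowest in 9 of the 10 genes was therefore also the one highest in both lists, and the part of these lists in the results was not tested. In bulk liver, fewer hepatocytes and less RNA per hepatocyte cannot be told apart.

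The comparison asked which steps of glucose output and glycogen turnover differed in transcript level after VSG. Pygl (liver glycogen phosphorylase) and Ppargc1a (the coactivator PGC-1α) fell in VSG livers, and the other 8 genes did not pass the test. With edgeR's quasi-likelihood test, 2 of the 10 passed an adjusted p of 0.05 as lower, against 7.87% of all 14454 genes tested, and 0 passed as higher, against 6.79% (14.7% in either direction). At an unadjusted p under 0.05, 7 of the 10 were lower and 0 higher, and 17.0% of all genes tested were lower. DESeq2 called 6 lower (10.3% of all genes with an adjusted p) and limma-voom 2 (7.26%), and neither called any higher. Scaling by total counts called 5 of the 10 lower and, over all genes tested, 1512 lower (10.5%) and 486 higher. All 10 log2 fold changes were negative, with a median of -0.75, while 47.6% of all genes tested were negative and their median was 0.03. In 8 of the 10 genes every VSG library lay below every sham library, which held for 19.8% of all genes tested.

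**Figure D1:**
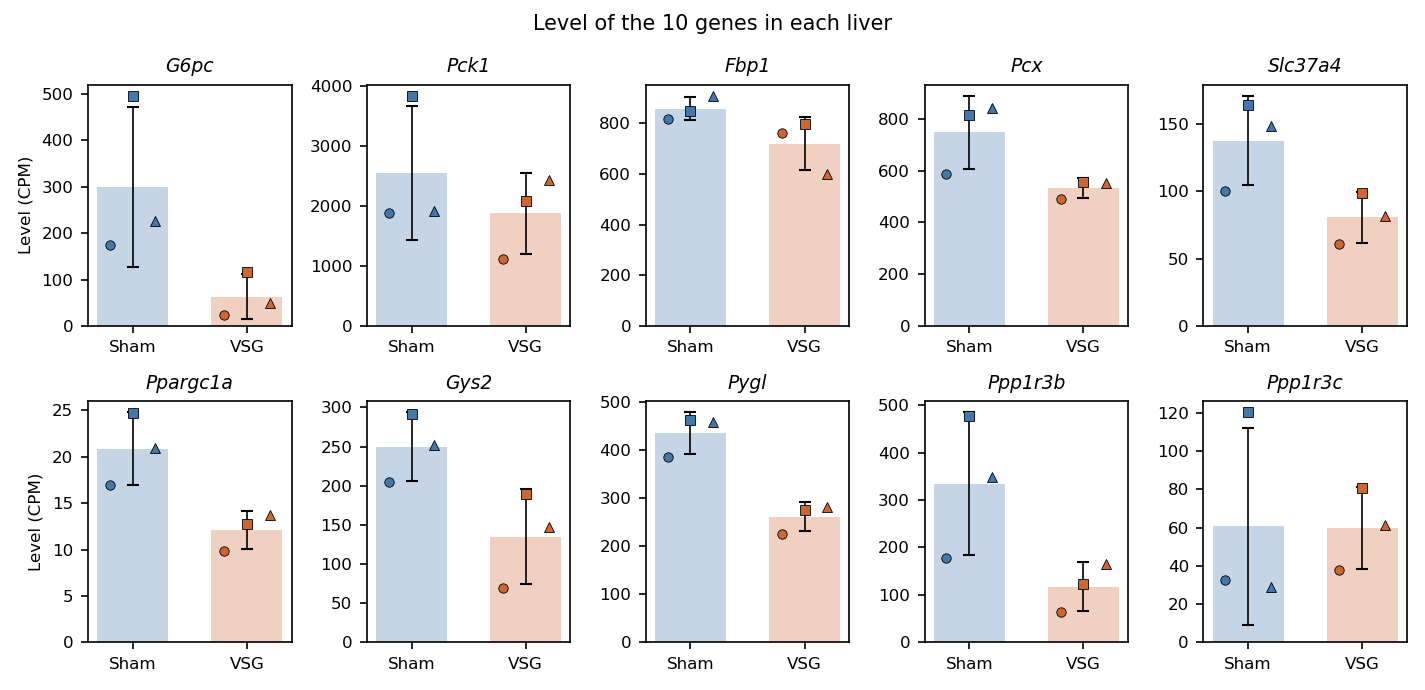
Level of each of the 10 genes in CPM (one panel per gene, each axis starting at 0) in sham and VSG livers. Bars are means and error bars SD (n = 3), and circle, square and triangle mark replicates 1, 2 and 3 in sham and 4, 5 and 6 in VSG. The groups overlap in Pck1 and Ppp1r3c only, sham replicate 2 (square) is the highest sham point in 8 panels, and VSG replicate 4 (circle) is the lowest VSG point in all panels but that of Fbp1.

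The size of the gap between the groups differed among these 8 genes. The lowest sham library was 1.49 times the highest VSG library in G6pc, and lesser gaps are seen in the values of the other 7 below. The edgeR calls of both Pygl and Ppargc1a were lost without sham replicate 2, sham replicate 3, VSG replicate 4 or VSG replicate 6, when 5 to 6 of the 10 genes were still lower at an unadjusted p under 0.05 and, without sham replicate 2, Ppp1r3c was higher at that threshold. They were kept without sham replicate 1, and without VSG replicate 5 there were 4 calls, with G6pc and Slc37a4 added.

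G6pc encodes the catalytic subunit of glucose 6-phosphatase, the last step of both gluconeogenesis and glycogen breakdown. It lies at chr11:101367561-101377903 on the plus strand of GRCm38 (mm10), in 5 exons. G6pc was at 174, 496 and 227 CPM in sham replicates 1, 2 and 3 and at 23.4, 117 and 48.8 CPM in VSG replicates 4, 5 and 6. The groups did not overlap, but each was spread widely, and VSG replicate 5 was 4.99 times VSG replicate 4. The mean was 299 ± 172.5 CPM in sham and 63.1 ± 48.3 CPM in VSG (SD, n = 3). This gave a log2 fold change of -2.25 (SE 0.653), the most negative of the 10, with an adjusted p of 0.0636. DESeq2 gave an adjusted p of 0.0299, scaling by total counts 0.0419, testing without a filter 0.0221 and leaving out VSG replicate 5 0.0220, so the call depended on the setting.

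Slc37a4 encodes the transporter that carries glucose 6-phosphate to that enzyme across the endoplasmic reticulum membrane. The gene spans chr9:44396852-44402968 on the plus strand with 11 exon blocks (exons of all transcripts merged). It was at 100.3, 164 and 148 CPM in sham and at 61.2, 98.7 and 81.9 CPM in VSG. The groups were separated only by the step from 98.7 CPM in VSG replicate 5 to 100.3 CPM in sham replicate 1. Slc37a4 had a log2 fold change of -0.77 and an SE of 0.239 (adjusted p = 0.0741). DESeq2 (adjusted p = 0.0235), total counts (0.0344), no filter (0.0434) and leaving out VSG replicate 5 (0.0475) brought it past the threshold, as for G6pc.

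Pck1 encodes cytosolic phosphoenolpyruvate carboxykinase, which turns oxaloacetate into phosphoenolpyruvate. It lies at chr2:173153048-173159273 on the plus strand, in 8 exon blocks. Pck1 was at 1884, 3835 and 1920 CPM in sham and at 1124, 2076 and 2438 CPM in VSG. The groups overlapped, since VSG replicates 5 and 6 exceeded sham replicates 1 and 3. The means were 2546 ± 1116 CPM in sham and 1879 ± 679 CPM in VSG, a log2 difference of -0.44 (SE 0.404) that did not pass the test (adjusted p = 0.470). Without sham replicate 2 the log2 fold change was -0.02 (adjusted p = 0.975). Over all 14 alternatives its adjusted p ran from 0.307 to 0.975.

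G6pc and Pck1 are the textbook targets of CREB and FoxO among these genes, so their upstream sequence was searched for 4 short motifs and is shown as far as it precedes both the RefSeq and the GENCODE start. Sequences were from RefSeq on GRCm38.p6, and the window searched ran from 250 bases before to 50 bases after each RefSeq start, on both strands. The Pck1 stretch is chr2:173152823-173153047 and the G6pc stretch chr11:101367466-101367560, both plus strand and 5′ to 3′, with the matching letters in capitals.
Pck1: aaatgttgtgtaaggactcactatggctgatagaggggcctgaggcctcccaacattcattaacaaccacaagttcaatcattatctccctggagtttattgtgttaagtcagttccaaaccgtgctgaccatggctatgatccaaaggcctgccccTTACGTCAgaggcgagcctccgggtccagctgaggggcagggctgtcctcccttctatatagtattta
G6pc: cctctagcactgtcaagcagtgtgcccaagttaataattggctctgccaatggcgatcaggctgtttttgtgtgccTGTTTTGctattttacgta
The capitals in Pck1 are TTACGTCA, a variant of the cAMP response element, 93 bases upstream of the RefSeq start. It is a textbook CREB site of this promoter, and the same letters stood in 0.499% of all 32851 promoter windows. The capitals in G6pc are the reverse complement of CAAAACA, the core of the insulin response element, 174 bases upstream of the RefSeq start, found in 6.28% of all windows. The full palindrome TGACGTCA (1.79% of all windows) and the FoxO element GTAAACA (3.65%) were in no window of the 10 genes. The table held 11 windows for 8 of the 10 genes and none for Gys2 and Ppp1r3b. TGACGTCA and TTACGTCA differ in a single letter, and a match is a description of the sequence only.

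Pcx encodes pyruvate carboxylase, the mitochondrial enzyme that makes oxaloacetate from pyruvate. It spans chr19:4510472-4621752 on the plus strand, with 25 exon blocks. Pcx was at 586, 815 and 842 CPM in sham and at 489, 555 and 552 CPM in VSG. The VSG libraries lay close together and below all sham libraries, the nearest being sham replicate 1. The log2 fold change was -0.49 (SE 0.184, adjusted p = 0.115), and of all 14 alternatives only DESeq2 called it (adjusted p = 0.0421).

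Fbp1 encodes liver fructose 1,6-bisphosphatase, which removes a phosphate on the way to fructose 6-phosphate. It lies at chr13:62864753-62888282 on the minus strand, in 7 exon blocks. Fbp1 was at 816, 847 and 907 CPM in sham and at 759, 796 and 601 CPM in VSG. The groups did not overlap, and the lowest VSG library was replicate 6, unlike in the other 9 genes. Its difference of -0.25 in log2 (SE 0.166, adjusted p = 0.316) missed the threshold here and under all 14 alternatives.

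Ppargc1a encodes PGC-1α, a coactivator of FoxO1, HNF4α and other factors at gluconeogenic genes. It spans chr5:51454250-51567726 on the minus strand, with 14 exon blocks. Its counts were 460, 542 and 551 in sham and 217, 299 and 287 in VSG, which corresponds to 17.0, 24.8 and 20.9 CPM and to 9.82, 12.8 and 13.7 CPM. The groups did not overlap, and the spread within each was below the distance between their means, 20.9 ± 3.89 and 12.1 ± 2.02 CPM. Ppargc1a fell by 0.79 in log2 units (SE 0.186, adjusted p = 0.0371). Its adjusted p became 0.0969 when sham replicate 2 was left out, 0.131 for sham replicate 3, 0.0776 for VSG replicate 4 and 0.0907 for VSG replicate 6. It remained lower in every alternative, with log2 fold changes from -0.92 to -0.55.

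Pygl encodes the liver isoform of glycogen phosphorylase, which cleaves glucose 1-phosphate from glycogen. It lies at chr12:70190811-70231488 on the minus strand, in 22 exon blocks. Pygl was at 385, 462 and 458 CPM in sham and at 227, 275 and 281 CPM in VSG. All VSG libraries lay below all sham libraries, with means of 435 ± 43.2 and 261 ± 30.1 CPM. Pygl fell by 0.74 in log2 units (SE 0.149, adjusted p = 0.0261), the lowest adjusted p of the 10 genes. Leaving out sham replicate 2 gave an adjusted p of 0.0727, sham replicate 3 0.115, VSG replicate 4 0.0574 and VSG replicate 6 0.0842.

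Gys2 encodes the liver isoform of glycogen synthase, which adds glucose to the growing chain. It spans chr6:142422613-142473109 on the minus strand, with 17 exon blocks. Gys2 was at 205, 292 and 252 CPM in sham and at 68.9, 189 and 147 CPM in VSG. The groups did not overlap, but VSG replicate 4 stood far below the other VSG libraries. Its log2 fold change was -0.89 (SE 0.355), more negative than that of Pygl, and it did not pass the test (adjusted p = 0.133), nor did it under any alternative (0.0580 to 0.277).

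Ppp1r3b and Ppp1r3c encode targeting subunits that bring protein phosphatase 1 to glycogen, where it activates glycogen synthase and inactivates phosphorylase. Ppp1r3b (the subunit G-L, abundant in liver) lies at chr8:35375739-35388139 on the plus strand, in 4 exon blocks. Ppp1r3c (also called PTG) lies at chr19:36731731-36736653 on the minus strand, in 2. Ppp1r3b was at 178, 477 and 349 CPM in sham and at 63.1, 124 and 166 CPM in VSG. The groups were just apart, the lowest sham library being replicate 1 and the highest VSG library replicate 6. The log2 fold change was -1.51 (SE 0.454, adjusted p = 0.0685), and DESeq2 (adjusted p = 0.00524), total counts (0.0322) and no filter (0.0293) called it lower.

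Ppp1r3c was at 32.6, 120 and 29.1 CPM in sham and at 37.7, 80.6 and 61.4 CPM in VSG. The groups overlapped fully: sham replicate 2 was the highest of the 6 libraries and sham replicates 1 and 3 the lowest. The log2 fold change was -0.01 (SE 0.580, adjusted p = 0.988), so the interval around it was wide. Without sham replicate 2 it was 0.95 (adjusted p = 0.126), and the sign was positive in 3 further alternatives, limma-voom (0.22), limma on log2(FPKM + 1) (0.22) and without VSG replicate 4 (0.23).

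**Figure D2:**
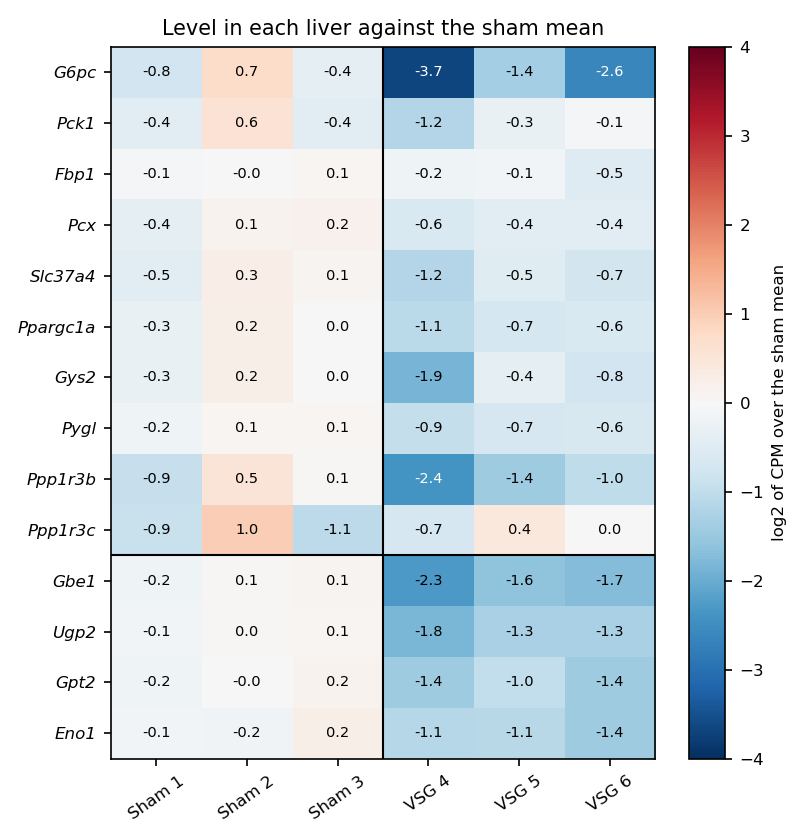
Difference in log2 level of each library from the mean sham level of the same gene, for the 10 genes and, under the line, Gbe1, Ugp2, Gpt2 and Eno1 (color scale and printed numbers in log2 units, one column per library). VSG replicate 4 is the lowest library of G6pc (-3.67) and of Ppp1r3b (-2.41), and sham replicate 2 is above 0 in all of the 10 except Fbp1.

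**Figure D3:**
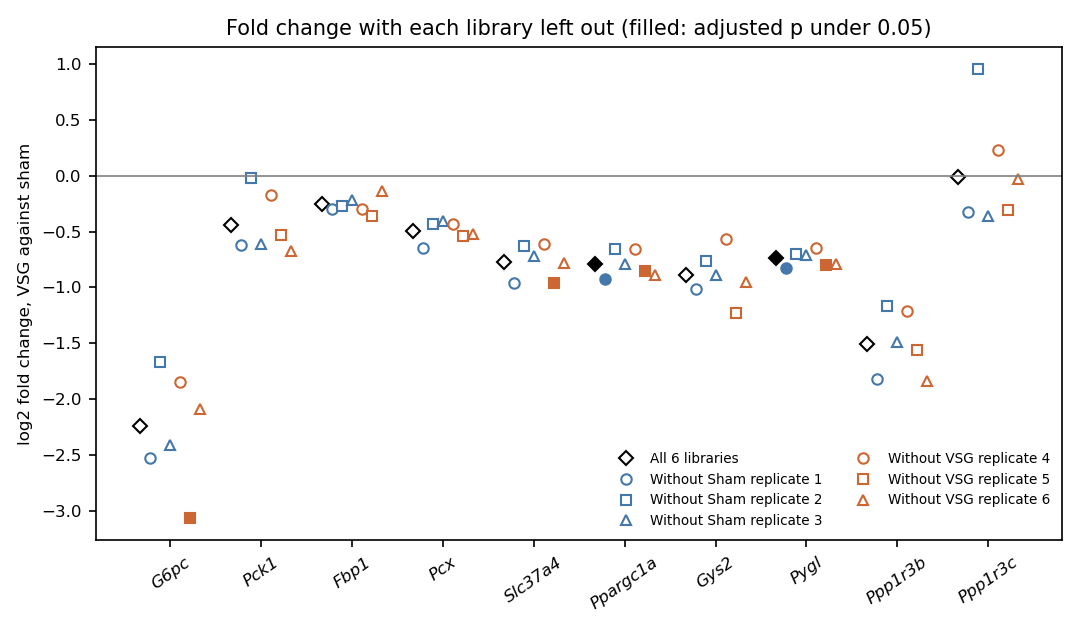
Log2 fold change of each of the 10 genes with all 6 libraries and with each library left out, with filled points for an adjusted p under 0.05 in edgeR. Pck1 moves to -0.02 and Ppp1r3c to 0.95 without sham replicate 2, and G6pc runs from -3.06 without VSG replicate 5 to -1.67 without sham replicate 2.

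Levels of different genes were compared per kilobase of exon (FPKM, computed from the counts with the same library scaling). In sham livers the order of mean FPKM was Pck1 (743 ± 325.5), Fbp1 (503 ± 27.2), Pcx (157 ± 29.6), G6pc (124 ± 71.5), Gys2 (94.1 ± 16.5), Pygl (63.1 ± 6.27), Ppp1r3b (53.8 ± 24.1), Slc37a4 (48.2 ± 11.6), Ppp1r3c (22.2 ± 18.9) and Ppargc1a (3.17 ± 0.590). Neighbours whose FPKM ranges overlapped in sham were Pcx and G6pc, G6pc and Gys2, Pygl and Ppp1r3b, Ppp1r3b and Slc37a4, and Slc37a4 and Ppp1r3c. In VSG livers the order began with Pck1 (548 ± 198), Fbp1 (422 ± 60.9), Pcx (112 ± 7.91), Gys2 (50.9 ± 23.0) and Pygl (37.9 ± 4.37). Slc37a4 (28.2 ± 6.56), G6pc (26.1 ± 20.02), Ppp1r3c (22.0 ± 7.87), Ppp1r3b (18.9 ± 8.29) and Ppargc1a (1.84 ± 0.307) followed. Only Fbp1 and Pcx, Pcx and Gys2, and Ppp1r3b and Ppargc1a were neighbours without overlap in VSG. G6pc stood 4th in sham and 7th in VSG by mean FPKM, and Ppp1r3b stood 7th in sham and 9th in VSG, behind Ppp1r3c.

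FPKM ratios of 5 gene pairs were formed within each library, where scaling between libraries cancels. In groups of 3 and 3 the smallest two-sided p of an exact permutation test is 0.1, so none of the 5 ratios could pass 0.05, and that smallest value corresponds to 0.167 after Benjamini-Hochberg adjustment over the 5. The ratio of G6pc to Slc37a4 was 2.06, 3.57 and 1.81 in sham and 0.453, 1.40 and 0.705 in VSG, a mean log2 difference of -1.63 (exact permutation p = 0.1). The ratio of G6pc to Pck1 was 0.131, 0.184 and 0.168 in sham and 0.0296, 0.0800 and 0.0284 in VSG, a log2 difference of -1.97 (exact permutation p = 0.1). Neither ratio overlapped between the groups, so G6pc was lower relative to its transporter and to Pck1 in every VSG library. The ratio of Ppp1r3c to Ppp1r3b was 0.418, 0.575 and 0.190 in sham and 1.36, 1.49 and 0.845 in VSG, a log2 difference of 1.74 without overlap (exact permutation p = 0.1).

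The other 2 ratios overlapped between the groups. Pygl to Gys2 was 0.724, 0.609 and 0.700 in sham and 1.27, 0.560 and 0.736 in VSG (log2 difference 0.25, exact permutation p = 0.7), and its high value was that of VSG replicate 4 alone. Pck1 to Pcx was 4.46, 6.52 and 3.16 in sham and 3.19, 5.18 and 6.12 in VSG (log2 difference 0.05, exact permutation p = 0.9). Differences in the proportion of phosphorylase to synthase, and of the enzymes on either side of oxaloacetate, thus lay within the spread between libraries.

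**Figure D4:**
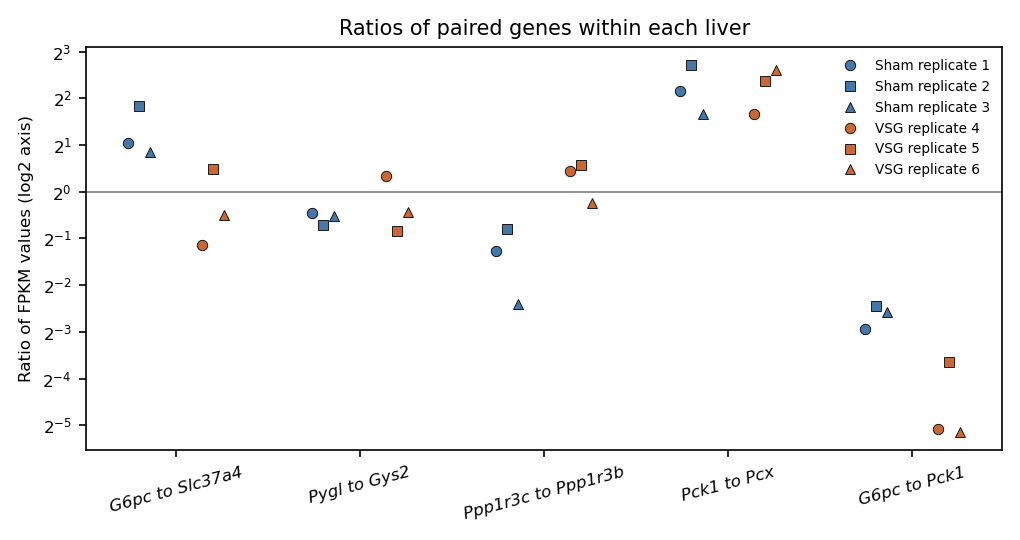
FPKM ratio of 5 gene pairs in each sham and VSG library on a log2 axis, with 1 point per library and a line where both genes are equal (n = 3 per group). G6pc to Slc37a4 and G6pc to Pck1 are lower and Ppp1r3c to Ppp1r3b higher in each VSG library than in any sham library, and Pygl to Gys2 and Pck1 to Pcx overlap.

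Among 24 genes of the steps shared with glycolysis and of the carbon supply to gluconeogenesis, 23 were tested and 7 passed the test, all lower in VSG. Over all genes tested, 7.87% passed as lower and 6.79% as higher. At an unadjusted p under 0.05, 13 of the 23 were lower and 1 higher, and 17.0% of all genes tested were lower. DESeq2 called 12 of the 24 lower, against 10.3% of all genes with an adjusted p. The median log2 fold change over the 23 was -0.61. Gpt2, the mitochondrial alanine aminotransferase that turns alanine into pyruvate, was at 933, 1047 and 1168 CPM in sham and at 394, 531 and 394 CPM in VSG. It fell by 1.25 in log2 units (SE 0.189, adjusted p = 0.0134), a call lost without sham replicate 3 (0.0729) or VSG replicate 6 (0.0697). Eno1, an enolase, was at 62.8, 61.4 and 80.8 CPM in sham and at 30.9, 31.3 and 25.5 CPM in VSG and fell by 1.22 (SE 0.145, adjusted p = 0.00792) under every alternative, although near-identical copies of this gene make its count uncertain. A further 4, named after their values were seen, were the malate dehydrogenases Mdh2 (-0.76, adjusted p = 0.0167) and Mdh1 (-0.69, 0.0357) and the aminotransferases Gpt (-0.68, 0.0437) and Got2 (-0.67, 0.0489). The Got2 call was lost in 7 of 14 alternatives, limma-voom and RLE factors among them, that of Gpt in 5, that of Mdh1 in 4 and that of Mdh2 in 2, and each of the 4 was lost without sham replicate 3 or VSG replicate 6. Got1, the cytosolic aspartate aminotransferase, also named after its values were seen, had a log2 fold change of 0.15 (adjusted p = 0.815), and its groups overlapped.

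Among 28 other genes of glycogen metabolism, 25 were tested and 5 passed, again all lower in VSG, with a median log2 fold change of -0.24. The shares of all genes tested were 7.87% lower and 6.79% higher. At an unadjusted p under 0.05, 9 of the 25 were lower and 3 higher, and 17.0% of all genes tested were lower. Without VSG replicate 5 there were 8 adjusted calls lower and 2 higher, against 1422 lower and 1310 higher among all 14830 genes tested. Gbe1, the branching enzyme of glycogen synthesis, was at 205, 239 and 248 CPM in sham and at 46.7, 75.4 and 69.8 CPM in VSG. It fell by 1.85 in log2 units (SE 0.201, adjusted p = 0.00673) and passed under all 14 alternatives. Ugp2, which makes the UDP-glucose that glycogen synthase uses, was at 514, 569 and 584 CPM in sham and at 158, 227 and 225 CPM in VSG. It fell by 1.45 (SE 0.180, adjusted p = 0.00873), and the call was lost only without sham replicate 3 (adjusted p = 0.0524). Other genes of glycogen synthesis did not pass, among them, named after their values were seen, Gys1 (log2 fold change 0.85, adjusted p = 0.0910), Gyg (0.13, 0.767) and Pgm1 (-0.48, 0.130). Epm2a (laforin, a glycogen phosphatase) was at 10.7, 15.3 and 11.7 CPM in sham and at 5.52, 7.40 and 5.44 CPM in VSG and fell by 1.04 (SE 0.199, adjusted p = 0.0229), a call lost in 4 of 14 alternatives, those without sham replicates 2 or 3 or VSG replicates 4 or 6 (adjusted p up to 0.0905).

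The remaining called genes of this list were named after their values were seen. Phkb, a subunit of phosphorylase kinase, fell by 0.45 on the log2 scale (adjusted p = 0.0265), and its call was lost when any library but VSG replicate 5 was left out (up to 0.0989). Ppp1r3g, a further glycogen targeting subunit, had 23, 71 and 12 counts in sham and 0 in each VSG library, at least 11.2-fold lower against a floor of 3 counts per library (adjusted p = 0.0470). It passed the filter on low counts only through the sham libraries, where it is high, so this call supports nothing further. Its counts are low, the bound was 4.81-fold without sham replicate 2 (a setting added after seeing the data), and leaving out any single library removed the call.

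Among 29 regulators of these pathways, all tested, 4 were called higher and 4 lower, with a median log2 fold change of -0.03. Over all genes tested, 6.79% were called higher and 7.87% lower. The split among the regulators depended on the processing, since total counts gave 1 higher (Sirt1) and 4 lower, and testing without a filter gave 2 higher and 3 lower. With total counts, 486 of all 14454 genes tested were higher and 1512 lower. Sirt1, a deacetylase that acts on PGC-1α and FoxO1, was at 16.0, 15.9 and 14.8 CPM in sham and at 23.0, 25.5 and 33.3 CPM in VSG and rose by 0.81 (SE 0.152, adjusted p = 0.0217). Creb1, the cAMP response factor itself, was at 25.3, 24.7 and 26.4 CPM in sham and at 39.1, 33.0 and 34.4 CPM in VSG and rose by 0.48 (SE 0.0981, adjusted p = 0.0269). Its acetyltransferase partners Crebbp (0.38, adjusted p = 0.0435) and, named after its values were seen, Ep300 (0.37, adjusted p = 0.0393) were higher as well, but both calls were lost in 9 of 14 alternatives, among them total counts (adjusted p = 0.266 and 0.212) and leaving out any library. Of the genes that were lower, Nr4a3, a nuclear receptor induced by cAMP, had 40, 28 and 52 counts in sham and 9, 8 and 14 in VSG. These are 1.48, 1.28 and 1.98 CPM and 0.407, 0.342 and 0.668 CPM, a log2 fold change of -1.74 (SE 0.353, adjusted p = 0.0265). It passed the filter on low counts only through the sham libraries, where it is high, so this call supports nothing further. With at least 10 counts required in every library Nr4a3 was not tested, and 3 regulators were called lower.

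Foxo3, a FoxO factor held out of the nucleus by insulin signalling, was at 74.2, 102 and 95.0 CPM in sham and at 51.4, 63.4 and 52.5 CPM in VSG and fell by 0.70 (SE 0.151, adjusted p = 0.0308). Prkaca, the catalytic subunit of protein kinase A, fell by 0.49 (SE 0.103, adjusted p = 0.0286), and Nr4a2, named after its values were seen, by 1.33 (adjusted p = 0.0475), a call lost in 9 of 14 alternatives. The Foxo3 call was lost without sham replicates 2 or 3 or VSG replicates 4 or 6 (adjusted p up to 0.123), and that of Sirt1 when any sham replicate or VSG replicate 6 was left out (up to 0.107). Creb1 (up to 0.107), Nr4a3 (up to 0.114) and Prkaca (up to 0.122) lost theirs when any library but VSG replicate 5 was left out, and Creb1 also with total counts (0.171). Foxo1, also named afterwards because it is the FoxO factor best known at G6pc and Pck1, was at 59.7, 139 and 105 CPM in sham and at 61.1, 64.4 and 60.7 CPM in VSG. The Foxo1 groups overlapped through sham replicate 1, and its log2 fold change of -0.71 did not pass the test (adjusted p = 0.131).

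**Figure D5:**
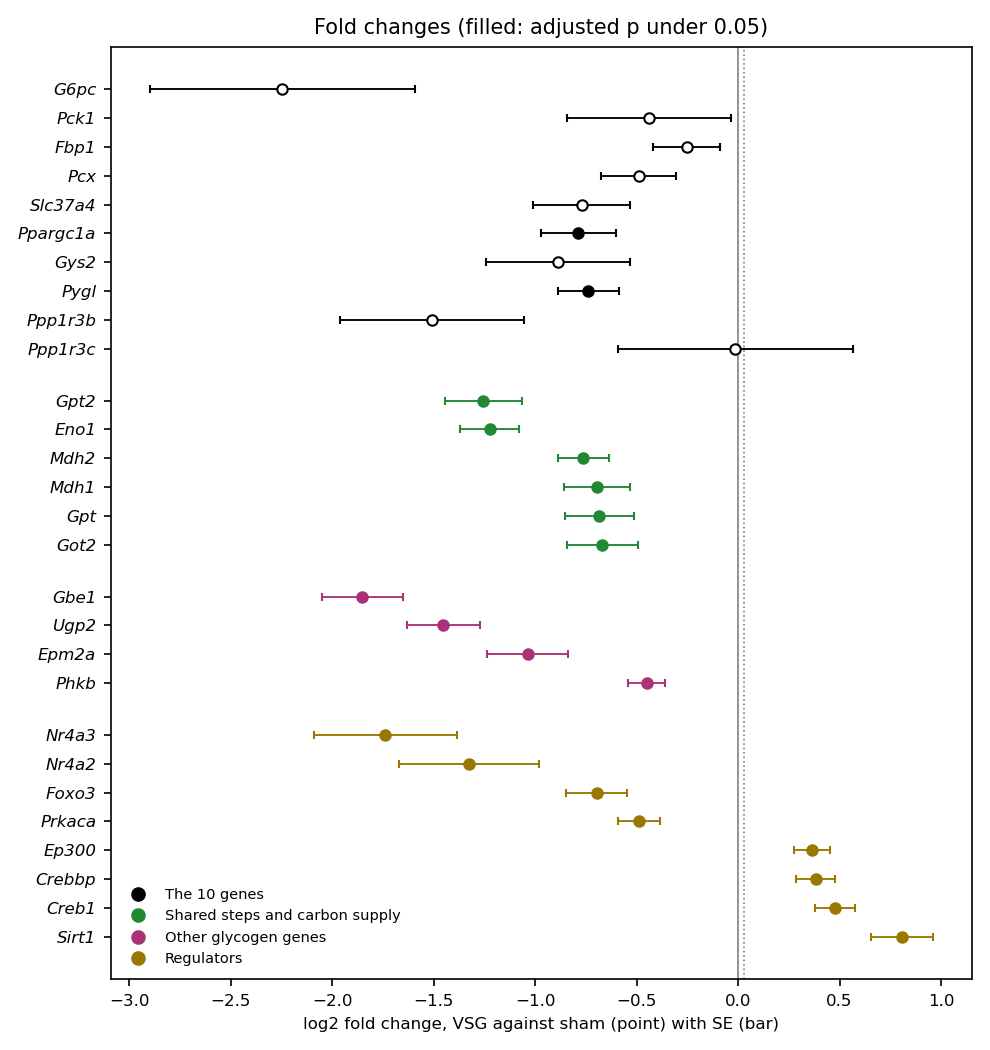
Log2 fold change with its SE (VSG against sham, edgeR) for the 10 genes and for the called genes of the 3 pathway lists that the text names, with filled points for an adjusted p under 0.05, a solid line at 0 and a dotted line at 0.03, the median of all genes tested. Ppp1r3g is not plotted because its VSG libraries held 0 counts. The plotted genes of the shared steps and of glycogen metabolism lie left of 0, and those of the regulators lie on both sides.

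G6pc and Ppp1r3c were each compared with all 9964 tested genes with a mean of at least 5 CPM, by the mean absolute difference of centred log2 CPM over the 6 libraries. The genes most like G6pc were Acot1, an acyl-CoA thioesterase (0.13), Upp2, a uridine phosphorylase (0.21), and Cyp8b1, the bile acid 12α-hydroxylase (0.25). Like G6pc, none of the 3 passed the test, with adjusted p values of 0.0659, 0.0605 and 0.0952, and each was highest in sham replicate 2 and lowest in VSG replicate 4. The nearest of the 10 genes was Ppp1r3b, in place 124 (0.63). The genes most like Ppp1r3c were Cyp4f14 (0.19), Stard4 (0.19) and Elovl3 (0.22), and the nearest of the 10 genes was Pck1, in place 99 (0.44). Among the 10 genes themselves, Ppargc1a and Pygl had the most similar profiles (0.08), and G6pc and Ppp1r3c the least similar (1.32).

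Other lists gave the setting of these values, to be read against 7.87% of all genes tested called lower by edgeR and 6.79% called higher. Of 7 hepatocyte markers none passed in edgeR (2 lower and 1 higher at an unadjusted p under 0.05, the same counts called by DESeq2), and their summed level was 63113 to 100045 CPM in sham and 45789 to 72274 CPM in VSG. Of 8 periportal markers, which belong to the zone where gluconeogenesis is strongest, 1 was lower (Hsd17b13, named after its values were seen). Without sham replicate 3 or VSG replicate 6, 0 of the 8 were called. Their summed level overlapped, at 5871 to 6876 CPM in sham and 5178 to 6867 CPM in VSG. The 8 pericentral markers had summed levels of 7169 to 17621 CPM in sham and 5278 to 12595 CPM in VSG, with 0 called by edgeR, 1 lower at an unadjusted p under 0.05 and 1 called by DESeq2. Macrophage markers were higher in 4 of 8 (345 to 730 CPM in sham, 742 to 2165 CPM in VSG), but in 0 of 8 by edgeR when sham replicate 2 or 3 or VSG replicate 6 was left out (5 of 8 at an unadjusted p under 0.05 each time), and 1 of 8 stellate cell markers was lower (373 to 695 and 166 to 364 CPM). All 8 stellate cell markers had negative log2 fold changes, with a median of -1.11, 7 were lower at an unadjusted p under 0.05, and DESeq2 called 5. These 7 became 2 when sham replicate 1 or 3 or VSG replicate 6 was left out, with 0 adjusted calls by edgeR, and 3 when VSG replicate 4 was left out. Adipocyte and skeletal muscle markers were at or near 0, with sums of at most 3.06 CPM. The part of these cell types in the values of the 10 genes was not tested.

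Since these transcripts follow feeding and time of day, 8 fasting-responsive genes and 13 core clock genes were read beside them. Of the fasting-responsive genes, 3 were lower and 1 higher in VSG (5 and 1 by DESeq2), against 7.87% and 6.79% of all genes tested. By edgeR 1 was lower without sham replicate 2 or VSG replicate 4, and 0 without sham replicate 3 or VSG replicate 6, when 3 and 4 were lower at an unadjusted p under 0.05. Pdk4, the kinase that turns off pyruvate dehydrogenase, was at 19.5, 40.1 and 18.8 CPM in sham and at 4.62, 6.88 and 4.58 CPM in VSG and fell by 2.28 (adjusted p = 0.0142), so its sham replicate 2 was the highest as in 8 of the 10 genes. Cpt1a and Txnip were the other genes that fell, and Asns the one that rose. Of the clock genes 1 passed in edgeR, Clock itself (log2 fold change 0.60, adjusted p = 0.0216), while 3 were higher and 2 lower at an unadjusted p under 0.05 and DESeq2 called 3 higher and 1 lower. The Clock call was lost without sham replicate 2 or 3 or VSG replicate 6. It was also lost with total counts, where 0 clock genes were called higher and 1 lower. These genes outside the 10 were named after their values were seen, and whether feeding or time of collection differed between animals was not tested.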

How the data were processed

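The deposited table held raw read counts per gene. The authors made strand-specific poly(A) libraries, aligned reads with STAR 2.6.0 to mm10 after FastQC 0.10.1 and counted them with featureCounts (2.0.3 in the submitters' processing notes). The annotation, the strand option and the handling of multiply mapped reads were not given in the sources used here, so genes with near-identical copies are uncertain. Of 55385 identifiers, 54487 matched GENCODE M21 (GRCm38) by identifier and version, with equal start and end, and 241 matched none. No exon of the 10 genes shares bases with another annotated gene.

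Each library came from 1 animal, grouped by sample title. The filter was filterByExpr with a minimum count of 10 and a minimum total of 15. The test was that of edgeR 4.0.16 (R 4.3.3): TMM factors (0.897 to 1.15), a quasi-likelihood model with group as its term, and Benjamini-Hochberg adjustment over all 14454 genes. SE is the log2 fold change divided by the square root of F. Alternatives were DESeq2 1.42.0, limma 3.58.1 (voom, and log2(FPKM + 1)), RLE factors, total counts, a prior count of 2, no filter other than 1 count, a minimum of 10 counts in each of the libraries, and leaving out each library. FPKM used the deposited exon lengths. The edgeR fit, and no other step, was tested on simulated data. Replicate libraries differed by more than counting noise (chi-square per degree of freedom at least 27.5). Floors cover counting error only.

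The 10 genes, the lists and the tests were chosen with earlier results of these data known. From each pathway list, up to 3 called genes in each direction with the largest change and a mean of at least 1 CPM were named, and others are marked as named after their values were seen. For G6pc and Ppp1r3c the 3 nearest profiles were named. The values of 1 called gene of the shared steps are not reported here.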

Additional observations from a re-analysis of the deposited data

How the results depend on the processing

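Single genes under alternatives gave 418 values, for the 10 genes and the called genes of the pathway lists. The list genes entered only because the main fit called them, so they could keep or lose a call but not gain one. Of the 418, 300 kept direction and side of the threshold, 102 kept direction but lost the call, 12 gained one and 4 changed sign. The 4 were all in Ppp1r3c: 0.22 with limma-voom, 0.22 with limma on log2(FPKM + 1), 0.95 without sham replicate 2 and 0.23 without VSG replicate 4 (range -0.36 to 0.95 over the libraries left out). DESeq2 called 3270 genes in place of 2118, 6 in place of 2 of the 10 genes and 12 in place of 7 genes of the shared steps. Total counts gave 5 of the 10 genes, 11 of the shared steps and 5 in place of 8 regulators, and no filter beyond 1 count gave 5 of the 10 genes and 5 regulators. Limma on log2(FPKM + 1) gave 5 regulators. The median log2 fold change of the 10 genes, -0.75, was -0.64 with limma on log2(FPKM + 1) and -0.88 with total counts, a scaling that moved the median of all genes from 0.03 to -0.11.

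Leaving out 1 library gave 159 (without sham replicate 3) to 2732 (without VSG replicate 5) called genes, with 210 without VSG replicate 6. Calls ran from 0 to 4 of the 10 genes, 1 to 10 of the shared steps, 1 to 10 of the other glycogen genes and 0 to 6 regulators, and the median of the 10 genes from -0.87 to -0.59. Log2 differences of ratios ran from -2.07 to -1.25 (G6pc to Slc37a4), -2.46 to -1.71 (G6pc to Pck1), 1.29 to 2.09 (Ppp1r3c to Ppp1r3b), -0.074 to 0.51 (Pygl to Gys2, lowest without VSG replicate 4) and -0.21 to 0.32 (Pck1 to Pcx, with -0.21 when sham replicate 3, -0.03 when VSG replicate 5 and -0.15 when VSG replicate 6 was left out). Fewer samples are tested in each of these fits, and further causes were not tested. No paired analysis was possible because the replicate numbers, 1 to 3 in sham and 4 to 6 in VSG, are not shared.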
